A study of Mus musculus with 2 samples.

Results

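The small leucine-rich proteoglycans (SLRPs) were followed through 8 genes, Dcn, Bgn, Lum, Fmod, Prelp, Ogn, Aspn and Podn, which were found by gene symbol among the 26082 genes of the deposited files. SLRPs are secreted proteins built around leucine-rich repeats, and many of them carry chondroitin, dermatan or keratan sulfate chains. In connective tissue they bind collagen and regulate how thick collagen fibrils become and how regularly they are spaced, and several of them also bind TGF-β or act on cell surface receptors. In skeletal muscle, fibro-adipogenic progenitors (FAPs), the mesenchymal cells that can become adipocytes or matrix-producing fibroblasts, are a known source of them.

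RNA of primary mouse FAPs was sequenced to ask which genes differ after transfection with plasmids that overexpress TGFBR3, the TGF-β co-receptor betaglycan, compared to the vector. Both libraries came from cells labelled WT and as under adipogenic differentiation, for which insulin (10 μg/ml), dexamethasone (0.25 μM), IBMX (0.5 mM) and 20% serum were added to DMEM. The FAPs were sorted from hind limb muscle and cultured, so the groups model transfected cells in culture. The study's methods name C57BL/6 mice, and the labels give no strain, animal age, number of animals or time of RNA collection. There was 1 library per group, 62321027 counts for TGFBR3 overexpression and 83779203 for the vector, so no difference has a replicate check, no test was run, and each comparison is between 2 libraries and not between conditions.

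Tgfbr3 itself was examined first. It was measured at 36.9 FPKM (fragments scaled by exon length and by the library total) in the library that carries the label of TGFBR3 overexpression (OE) and 35.1 in the one labelled as vector control, a log2 ratio of (FPKM + 1) of 0.07, or −0.06 after centring on the median gene. Tgfbr3 was thus not raised in the library of that label. The libraries are called OE-labelled and vector-labelled throughout, and every direction given holds only as far as these labels do. Of the 10 FAP markers, 8 were over 3 counts in both libraries, 3 higher and 5 lower in the OE-labelled library, with a median log2 ratio of −0.05. Their summed level was 1292 against 992.8 FPKM, most of it from Ly6a, which encodes Sca-1 and stood at 1013 and 706 FPKM. Osr1 stood at 24.8 and 16.2 FPKM and Cd34 at 20.6 and 25.7. Pdgfra, the defining FAP receptor and named here after its values were seen, stood at 30.5 and 32.6 FPKM. Tcf21 was at 0 in both libraries and Dpp4 at 0 in the vector-labelled library. All 10 interferon-response genes were over 2-fold higher in the OE-labelled library, with a summed level of 2071 against 297 FPKM. Irf7, an interferon-induced transcription factor, stood at 279 and 21.0 FPKM. The part of this difference in any proteoglycan value was not tested.

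Coordinates are given on mm10 with GENCODE M21. The 8 genes lie at 5 places in the mouse genome, and 6 of them lie in neighbouring pairs. Prelp (chr1:133910304-133921414, minus strand) and Fmod (chr1:134037254-134048277, plus strand) are 115.8 kb apart. Dcn (chr10:97479609-97518143) and Lum (chr10:97565128-97572703), both on the plus strand, are separated by 47.0 kb. Aspn (chr13:49544443-49567565) and Ogn (chr13:49608046-49624501), also on the plus strand, are separated by 40.5 kb. Bgn lies alone at chrX:73483602-73495933 on the plus strand and Podn at chr4:108014791-108096445 on the minus strand.

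The 250 bases before the RefSeq start on GRCm38.p6 are shown for the neighbouring pairs Prelp and Fmod and Aspn and Ogn, because the members of each of these pairs differed in their ratio between the libraries. RefSeq promoters were matched for 6 of the 8 genes, and those of Dcn and Lum were not matched. The windows are Prelp chr1:133921402-133921651 on the minus strand, Fmod chr1:134037004-134037253, Aspn chr13:49544193-49544442 and Ogn chr13:49607765-49608014, the last 3 on the plus strand. All are written 5′ to 3′, and capitals mark CAGAC, the box that SMAD proteins of the TGF-β pathway bind, or its reverse complement.
Prelp: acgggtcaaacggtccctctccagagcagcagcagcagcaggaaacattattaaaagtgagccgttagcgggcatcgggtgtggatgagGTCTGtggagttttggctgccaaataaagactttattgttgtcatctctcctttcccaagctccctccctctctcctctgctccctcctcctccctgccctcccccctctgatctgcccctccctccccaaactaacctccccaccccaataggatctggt
Fmod: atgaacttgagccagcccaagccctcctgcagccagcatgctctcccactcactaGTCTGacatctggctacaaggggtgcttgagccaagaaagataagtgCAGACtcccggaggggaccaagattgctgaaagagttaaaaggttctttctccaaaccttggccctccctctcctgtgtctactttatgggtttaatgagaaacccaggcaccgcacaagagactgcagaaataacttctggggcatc
Aspn: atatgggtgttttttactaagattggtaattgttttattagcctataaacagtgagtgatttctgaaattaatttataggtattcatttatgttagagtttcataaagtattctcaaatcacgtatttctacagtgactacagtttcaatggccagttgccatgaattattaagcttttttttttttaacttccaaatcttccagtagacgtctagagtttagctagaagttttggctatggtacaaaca
Ogn: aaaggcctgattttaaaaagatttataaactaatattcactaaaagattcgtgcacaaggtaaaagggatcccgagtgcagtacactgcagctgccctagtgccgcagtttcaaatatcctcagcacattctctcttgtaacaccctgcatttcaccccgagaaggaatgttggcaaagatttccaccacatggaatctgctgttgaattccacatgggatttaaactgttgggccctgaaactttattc

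CAGAC, searched on both strands, stood at positions −195 and −148 from the start of Fmod and at −161 of Prelp, and not in the windows of Aspn, Ogn, Bgn or Podn. It is a common word, found in 42.2% of 32851 mouse promoter windows of the same length. GGGCGG, the box of SP family factors, was found on either strand at 3 positions before Bgn, −34, −10 and −6, of which the last 2 overlap, and in 32.7% of all windows. It was also found before 1 of the 2 starts of Podn. TATAA on either strand lay far from the start in Aspn (−207 and −177) and in Ogn (−228 and −227, which overlap), and in 22.8% of all windows. The interferon-response word that reads TTTC, any pair of bases and TTTC had no match before any of the 6 genes, and 3.0% of all windows held it. GC content of the windows ranged from 30.0% in Aspn to 64.4% in Bgn among the genes with 1 window, and was 64.0% and 78.0% in those of Podn. These matches describe the letters of the windows and not bound sites.

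The 8 genes spanned more than 3 orders of magnitude and fell into an abundant and a scarce set of 4. Bgn, Prelp, Fmod and Dcn had a mean of at least 1 FPKM, whereas Ogn, Aspn, Podn and Lum lay under it. Bgn and Prelp alone made up 94.6% of the summed SLRP level in the OE-labelled library and 92.6% in the vector-labelled library. The 4 scarce genes together made up 0.136% and 0.112%, or 2.12 and 1.86 FPKM. The order Bgn, Prelp, Fmod, Dcn was the same in both libraries. Below it, the order was Ogn, Aspn, Lum, Podn in the OE-labelled library, with Lum and Podn only 0.01 FPKM apart, and Aspn, Podn, Ogn, Lum in the vector-labelled library. With 1 library per group there is no spread to set beside these orders.

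**Figure D1:**
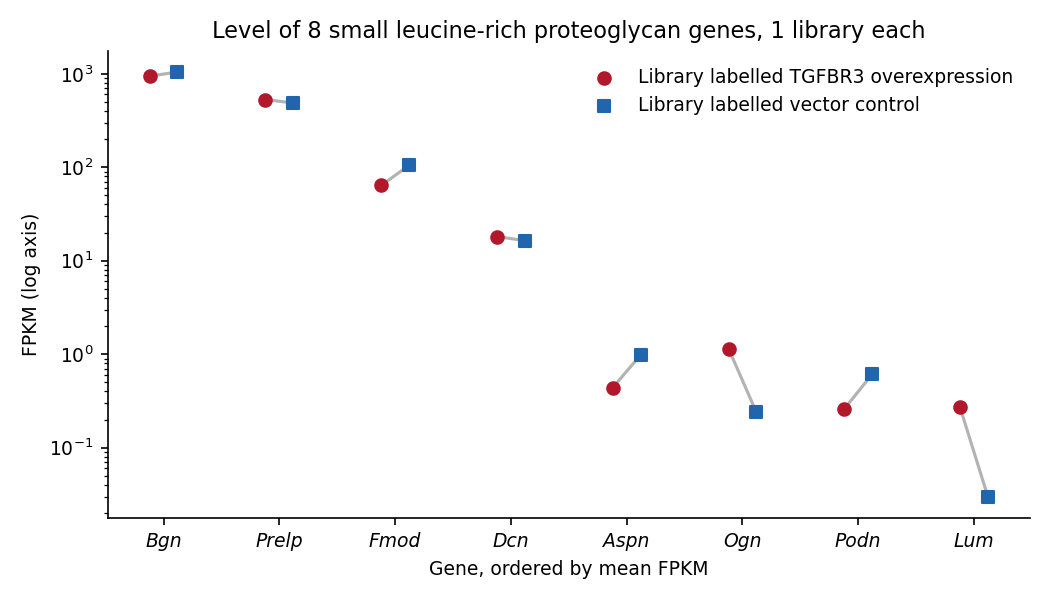
Level of each of the 8 genes in FPKM on a log axis, ordered by the mean of the 2 libraries, with circles for the OE-labelled library and squares for the vector-labelled library. Bgn is at 944 and 1045 FPKM, Lum at 0.27 and 0.03, and the widest gaps between circle and square are in Ogn and Lum.

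Summed over the 8 genes, the SLRP level was 1558 FPKM in the OE-labelled library and 1654 in the vector-labelled library, a log2 ratio of −0.09. Their reads were 0.870% and 0.946% of all counts. By the log2 ratio of (FPKM + 1), 4 members were higher in the OE-labelled library and 4 were lower (Fmod, Aspn, Podn, Bgn). Of the higher ones, Ogn kept its direction under every setting tried, whereas Lum, Dcn and Prelp turned under some, as given for each below. After centring on the median of the 10626 genes with at least 1 FPKM in both libraries, which was 0.13, Prelp moved to the lower side and the counts became 3 and 5. The median over the 8 members was −0.01, beside 0.08 over all 17985 genes with more than 3 counts in both libraries.

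No member was 2-fold higher or 2-fold lower on the (FPKM + 1) scale. Among all 17985 genes, 1.96% were 2-fold higher and 0.656% were 2-fold lower. At 1.5-fold, 1 member was higher (Ogn) and 1 lower (Fmod), and the background was 8.97% and 3.26%. Adding 1 to FPKM compresses the ratios of the 4 scarce genes. In CPM, the counts scaled to a common total, with nothing added, 2 of the 8 members were 2-fold higher (Ogn and Lum) and 2 were 2-fold lower (Aspn and Podn), against 13.0% and 4.35% of all genes. Low genes differ more often on this scale: of the 4924 genes with a mean of 0.1 to 1 FPKM, 22.4% were 2-fold higher and 7.11% were 2-fold lower, with a median log2 CPM ratio of 0.40. All 8 members were over 3 counts in both libraries.

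**Figure D2:**
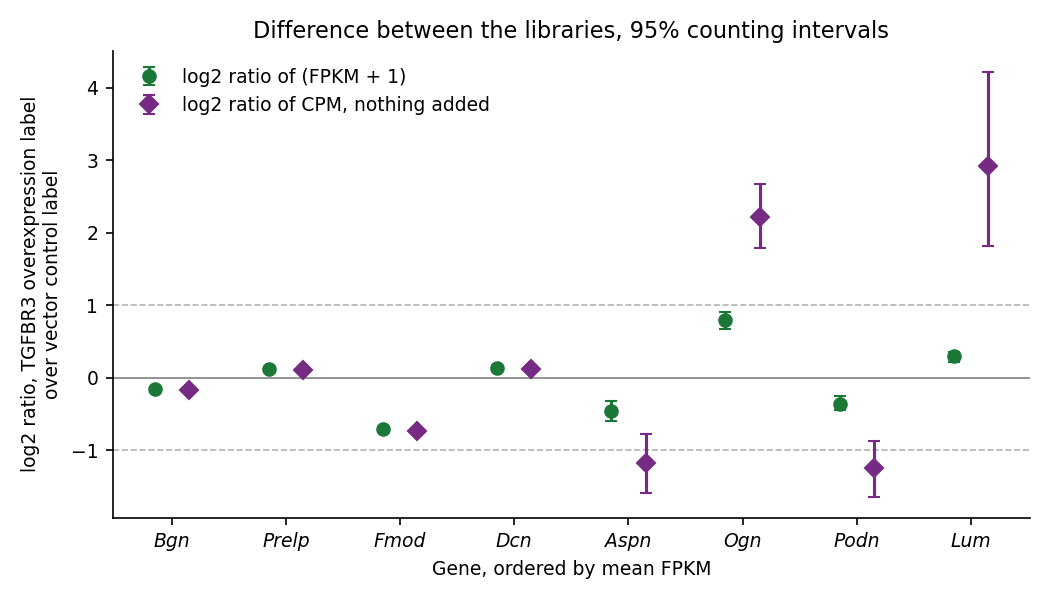
Log2 ratio of each of the 8 genes, OE-labelled over vector-labelled library, on the (FPKM + 1) scale (circles) and as plain CPM (diamonds), with bars for the 95% counting interval and dashed lines at 2-fold. The 4 abundant genes have about the same ratio on both scales, whereas Ogn, Lum, Aspn and Podn pass 2-fold only as CPM.

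Bgn encodes biglycan, which carries a pair of chondroitin or dermatan sulfate chains, binds collagen fibrils and, in soluble form, acts on Toll-like receptors. It was the most abundant member, with 944 FPKM (390456 counts) in the OE-labelled library and 1045 FPKM (588619 counts) in the vector-labelled library. It ranked 22 and 23 among all 26082 genes. The OE-labelled library was thus slightly lower, with a log2 ratio of (FPKM + 1) of −0.15 and a counting interval of −0.15 to −0.14. The 95% intervals of single genes are exact (Clopper-Pearson), those of a ratio between genes are normal approximations, and all rest on the counts alone. They cover counting error only, and whether reads carried molecular identifiers is not given in the sources used here, so the error between cultures, which is not measured, is not in them.

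Dcn encodes decorin, the closest relative of biglycan, which carries a single chain, limits the lateral growth of collagen fibrils and binds TGF-β. It was measured at 18.2 FPKM (7196 counts) in the OE-labelled library and 16.4 FPKM (8848 counts) in the vector-labelled library. Its log2 ratio of (FPKM + 1) was 0.14 (0.10 to 0.18), but this turned to −0.07 with edgeR's TMM scaling, −0.11 with DESeq2 size factors, −0.31 after removal of the trend over exon GC content and −0.07 after removal of the trend over exon length. The direction of Dcn is therefore not settled in these libraries. Biglycan RNA exceeded decorin RNA by a wide margin in both, with a Bgn to Dcn ratio of FPKM of 52.0 and 63.7. This ratio within a library does not depend on how the libraries are scaled to each other, and it differed by −0.29 on the log2 scale (−0.34 to −0.25), but Dcn is much poorer in GC than Bgn, and the difference turned to 0.23 in CPM without the GC trend.

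Prelp encodes prolargin, a SLRP with a basic amino-terminal region that binds heparan sulfate and links collagen to basement membranes. It was the second most abundant member, with 529.7 FPKM (129901 counts) and 486.3 FPKM (162426 counts) in the OE-labelled and vector-labelled library. The first was higher by a log2 ratio of (FPKM + 1) of 0.12 (0.11 to 0.13), which became −0.0031 after centring on the median gene, −0.10 with TMM and −0.13 with DESeq2 size factors. Prelp made up 34.0% of the summed SLRP level in the OE-labelled library and 29.4% in the other, and Bgn 60.6% and 63.2%. The Bgn to Prelp ratio was 1.78 and 2.15, a log2 difference of −0.27 (−0.28 to −0.26).

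Fmod encodes fibromodulin, a keratan sulfate SLRP of tendon and other dense tissue that binds collagen and TGF-β and guides collagen crosslinking. It was the abundant member that differed most, with 63.9 FPKM (14328 counts) in the OE-labelled library and 104.9 FPKM (32033 counts) in the vector-labelled library. Its log2 ratio of (FPKM + 1) was −0.71 (−0.73 to −0.68), and its CPM was 1.66-fold lower (1.63 to 1.70). Fmod lay between −0.97 and −0.64 under all 14 other settings tried. It ranked 774 among all genes in the first library and 459 in the second.

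Prelp and Fmod, neighbours on chromosome 1, thus differed in their ratio. Prelp exceeded Fmod 8.29-fold in FPKM in the OE-labelled library and 4.64-fold in the vector-labelled library, a difference of 0.84 on the log2 scale (0.81 to 0.87). The same held for Fmod set against Dcn, with FPKM ratios of 3.52 and 6.40, a log2 difference of −0.86 (−0.92 to −0.81). In contrast, the Prelp to Dcn ratio was 29.2 and 29.7, and the interval of its log2 difference, −0.07 to 0.02, held 0. Both comparisons with the GC-poor Dcn depended on base composition, since without the GC trend in CPM the log2 difference was −0.25 for Fmod to Dcn and 0.59 for Prelp to Dcn. That of Prelp to Fmod stayed at 0.84 by construction, as both genes lie in the same GC bin and lose the same value. Within the abundant set, Fmod was lower relative to each of Bgn, Prelp and Dcn, whatever scaling joins the libraries and with or without the GC trend.

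Ogn encodes osteoglycin, also called mimecan, a keratan sulfate SLRP of connective tissue and bone. It was scarce, with 1.15 FPKM (201 counts) in the OE-labelled library and 0.24 FPKM (58 counts) in the vector-labelled library. It was higher in the first by a log2 ratio of (FPKM + 1) of 0.79 (0.67 to 0.91) and by 4.66-fold in CPM (3.46 to 6.35). It was the only member past 1.5-fold on the higher side of the (FPKM + 1) scale. That call was lost without the GC trend, at 0.35. The trend was fitted on genes with a mean of at least 1 FPKM, a level that Ogn lay under. Its log2 CPM ratio was 2.22, and 1.63 without the GC trend.

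Aspn encodes asporin, which has an aspartate-rich amino-terminal stretch, lacks glycosaminoglycan chains and binds collagen and TGF-β. It stood at 0.44 FPKM (71 counts) in the OE-labelled library and 0.98 FPKM (215 counts) in the vector-labelled library. The first was lower, with a log2 ratio of (FPKM + 1) of −0.46 (−0.59 to −0.31) and a CPM 2.25-fold lower (1.72 to 2.99). Without the GC trend Aspn lay further down, at −0.90 on the (FPKM + 1) scale, past 1.5-fold, and at −1.76 compared to −1.17 in log2 CPM. Ogn and Aspn, neighbours on chromosome 13 and both of low exon GC content, thus went opposite ways. The Ogn to Aspn ratio of FPKM was 2.61 in the OE-labelled library and 0.245 in the vector-labelled library. In counts this ratio differed 10.5-fold (log2 3.39, 2.82 to 3.96). Omd and Ecm2, the other family members at this locus, were near the detection limit, with 7 and 2 counts for Omd and 51 and 36 for Ecm2. Cenpp, which spans this locus on the opposite strand and shares 7 exonic bases with Aspn, had 64 and 115 counts.

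Lum encodes lumican, a keratan sulfate SLRP needed for orderly collagen fibrils in the cornea and found in many connective tissues. It was the scarcest member by the mean of the libraries, with 0.27 FPKM (45 counts) in the OE-labelled library and 0.03 FPKM (8 counts) in the vector-labelled library. In CPM it was 7.56-fold higher in the first, with a wide interval of 3.53 to 18.6, whereas its log2 ratio of (FPKM + 1) was 0.30 (0.22 to 0.36) and turned to −0.13 after removal of the trend over exon GC content. In plain CPM, where nothing is added, Lum stayed higher without that trend, with a log2 ratio of 2.35 compared to 2.92 before. The trend was fitted on genes with a mean of at least 1 FPKM, a level that Lum lay under. Its neighbour Dcn differed little, so the Dcn to Lum ratio of counts was lower in the OE-labelled library by a log2 difference of −2.79 (−3.88 to −1.70). Kera, the next family gene at the locus, had 0 counts in both libraries.

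Podn encodes podocan, a SLRP of a separate class that binds collagen and is known from smooth muscle and kidney. It stood at 0.26 FPKM (76 counts) in the OE-labelled library and 0.61 FPKM (242 counts) in the vector-labelled library. The first was lower, with a log2 ratio of (FPKM + 1) of −0.35 (−0.44 to −0.25) and a CPM 2.37-fold lower (1.82 to 3.11). Its closest relative Podnl1, named after its values were seen, was also lower in the OE-labelled library, with 0.27 FPKM (65 counts) against 0.92 FPKM (303 counts).

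**Figure D3:**
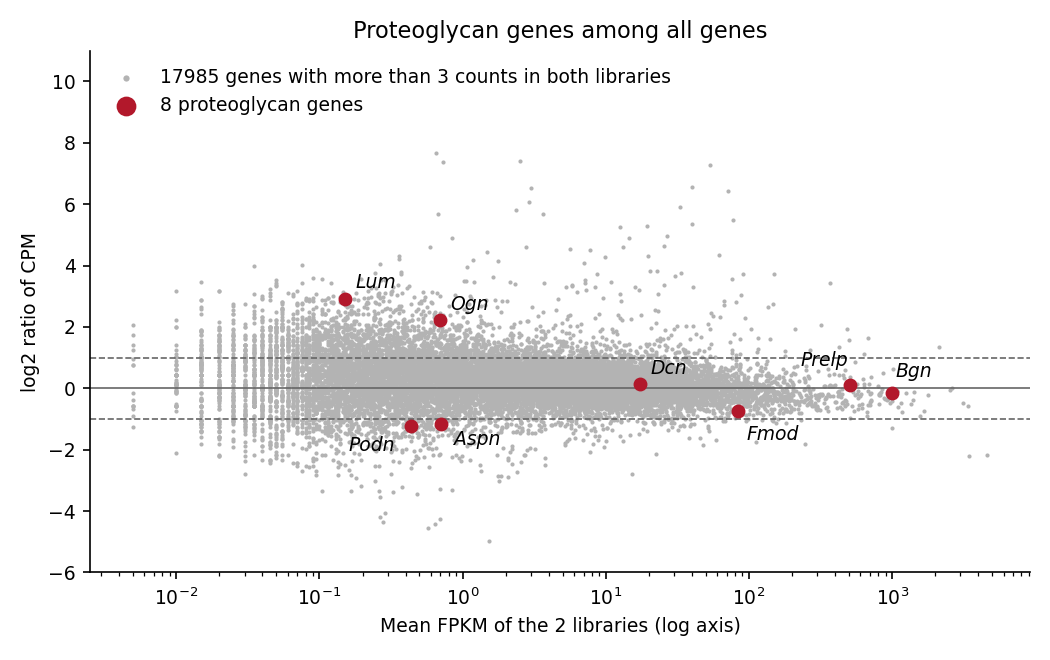
Log2 CPM ratio, OE-labelled over vector-labelled library, against the mean FPKM of the 2 libraries on a log axis, for 17985 genes (grey) and the 8 SLRP genes (red), with dashed lines at 2-fold. Bgn, Prelp, Fmod and Dcn lie inside the 2-fold lines at high level, and Lum, Ogn, Aspn and Podn lie outside them where the grey cloud is wide.

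Of the other SLRP family genes, 9 of 10 were analysed and 6 were over 3 counts in both libraries, with 3 higher and 3 lower and a median log2 ratio of −0.0020. Only Tsku, which encodes the secreted signalling modulator tsukushi, had a mean of at least 1 FPKM, and it stood at 37.6 and 38.0 FPKM. Optc, the gene next to Prelp, had 64 and 52 counts. The members shared at most 0.35% of their 31-base words with other genes, so reads split with near copies concern a small share of their sequence. Prelp shares 9.68% of its exonic bases with Gm15851 on the other strand, which had 4 and 10 counts.

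Exon GC content moved with the ratio of all genes. Over 11207 genes with a mean of at least 1 FPKM, the median log2 ratio of (FPKM + 1) was 0.45 in the bin of lowest GC content and −0.25 in the bin of highest. Ogn, Lum, Aspn and Podn lay under that level. Adding 1 compresses their ratios, whereas the trend of the more abundant genes is subtracted whole. Among the members, Ogn (36.3% GC), Dcn (37.8%) and Lum (41.9%) were GC-poor and higher in the OE-labelled library. Dcn and Lum turned on the (FPKM + 1) scale once the GC trend was removed. Podn (56.7%) was GC-rich and lower. Bgn (50.9%) and Fmod (54.1%) were also lower, but the median ratio of all genes in their GC bins was 0.07 and −0.0027. Aspn had the lowest GC content, 34.3%, yet was lower, and Prelp, with 53.8%, was higher, except when centred or scaled by TMM or DESeq2 size factors. After the trend was removed, the log2 ratio of (FPKM + 1) was −0.70 for Fmod, −0.90 for Aspn, −0.26 for Podn, −0.22 for Bgn, 0.35 for Ogn and 0.13 for Prelp, all in their first direction, whereas Dcn and Lum changed sign to −0.31 and −0.13. In plain CPM, removal of the trend left Lum at a log2 ratio of 2.35, Ogn at 1.63, Aspn at −1.76 and Podn at −1.12. These 4 thus stayed past 2-fold in their first direction, whereas Dcn was at −0.46. With a trend fitted instead on genes with a mean of 0.1 to 1 FPKM, Lum was at 2.26, Ogn at 1.48, Aspn at −1.91 and Podn at −1.44.

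**Figure D4:**
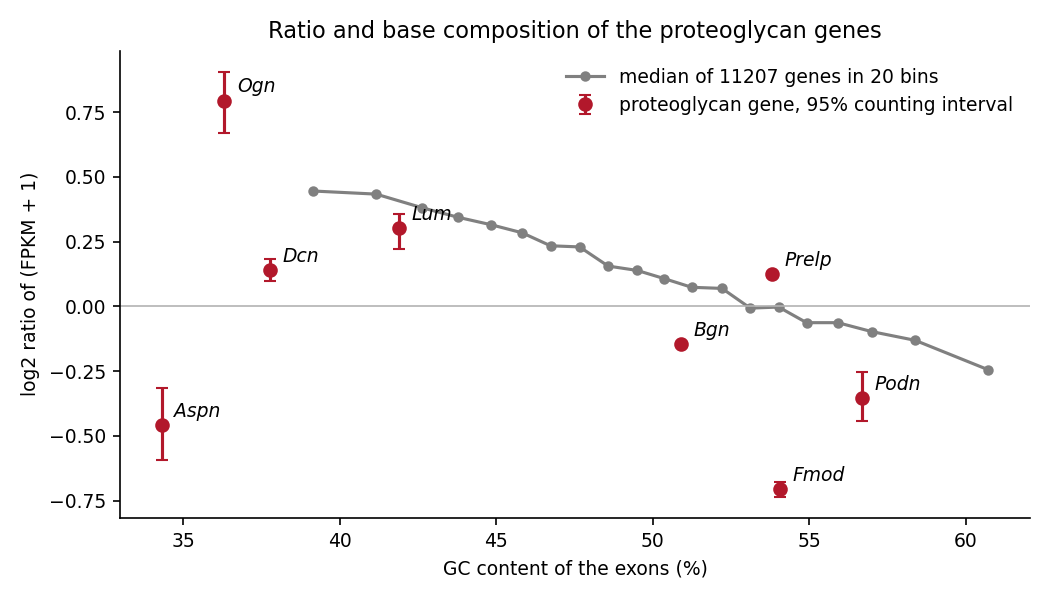
Log2 ratio of (FPKM + 1), OE-labelled over vector-labelled library, against exon GC content in percent for the 8 SLRP genes (red, bars for the 95% counting interval), with the median of 11207 genes in 20 bins of GC content (grey line). The line falls from 0.45 to −0.25, Fmod and Aspn lie well below it, and Ogn lies above its left end.

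Collagens, the main binding partners of SLRPs, were compared next. All 12 fibrillar and fibril-associated collagen genes were lower in the OE-labelled library, 9 of them past 1.5-fold and 5 past 2-fold, with a median log2 ratio of (FPKM + 1) of −0.94, beside −0.01 for the 8 SLRP genes and 0.08 for all genes. Col14a1, a collagen on the fibril surface, stood at 0.43 and 3.08 FPKM, Col5a3 of collagen V at 7.70 and 21.9, and Col6a1 of the collagen VI microfibrils at 29.2 and 75.2. The summed SLRP level was 1.29 times that of the 12 collagens in the OE-labelled library and 0.808 times in the vector-labelled library, a 1.60-fold difference that no scaling between libraries can move. A GC trend can move it, and this summed ratio was not computed without that trend. Against Col1a1 alone, a collagen I gene named after its values were seen, the FPKM ratio was 2.02 and 1.20 for Bgn, 1.13 and 0.559 for Prelp, and 0.137 and 0.121 for Fmod. Among the 4 abundant members the ratio of Fmod to Col1a1 differed least, by 0.18 on the log2 scale (0.15 to 0.21), compared to 0.75 for Bgn, 1.02 for Prelp and 1.04 for Dcn. In CPM without the GC trend these were 0.08 for Fmod, 0.55 for Bgn, 0.92 for Prelp and 0.32 for Dcn. Such ratios depend on the collagen chosen. Col5a2, also named after its values were seen, stood at 181.1 and 202.1 FPKM. Its log2 CPM ratio was −0.18, beside −0.17 for Bgn and −0.73 for Fmod.

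Enzymes that shape collagen and the sugar chains of SLRPs differed less than the collagens. The 12 genes listed for collagen crosslinking and modification were lysyl oxidases, lysyl and prolyl hydroxylases and Serpinh1. Of these, 8 were lower and 4 higher, with a median of −0.22 and none past 2-fold. P4ha3, a prolyl hydroxylase subunit, stood at 10.3 and 16.0 FPKM, and Plod2, a lysyl hydroxylase, at 40.5 and 29.4. Of the 7 enzymes that build the linker of every chain, 4 were lower, with a median of −0.14, and B3gat3, which adds the last linker sugar, stood at 8.03 and 10.3 FPKM. The 16 chondroitin and dermatan sulfate enzymes had a median of −0.07 with 10 lower. Chst14, the sulfotransferase that acts on dermatan sulfate, stood at 21.6 and 29.3 FPKM, and Dse, the epimerase that makes dermatan sulfate, at 15.3 and 12.5. Of the 8 keratan sulfate enzymes, 6 were over 3 counts in both, with a median of −0.07, and B4galt4 stood at 1.69 and 2.56 FPKM. On the (FPKM + 1) scale no gene of these 3 chain lists was past 1.5-fold.

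Among 11 genes, proteases that can process SLRPs and the Bmp1 enhancers Pcolce and Pcolce2, the median was −0.07 with 5 higher and 6 lower. Bmp1, which removes propeptides of biglycan and of collagens, stood at 39.1 and 54.2 FPKM, and its enhancer Pcolce at 150.6 and 201.2. Of the 12 receptors of soluble SLRPs, 9 were higher, with a median of 0.21, which became 0.08 after centring and −0.05 after removal of the GC trend. Tlr2, a Toll-like receptor for soluble biglycan, stood at 34.6 FPKM in the OE-labelled library and 16.7 in the other, a log2 ratio of (FPKM + 1) of 1.01, or 0.88 centred. Lrp1, the endocytic receptor of decorin, stood at 101.8 and 166.1 FPKM, and Cd44 at 59.7 and 37.6. The 12 TGF-β ligands, latency proteins and receptors had 6 higher and 6 lower, with a median of 0.0005 and 2 past 1.5-fold, both lower. Of the latency proteins, Ltbp2 stood at 87.5 and 151.3 FPKM, Ltbp3 at 24.2 and 39.8, and Ltbp1 at 4.53 and 2.82.

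Of 17 proteoglycans outside the family, 16 were over 3 counts in both libraries, with 6 higher, 9 lower and a median of −0.02, close to that of the SLRP genes. Prg4, the joint lubricant lubricin, stood at 22.4 and 68.0 FPKM, and Agrn, the basement membrane proteoglycan agrin, at 29.2 and 13.6. No SLRP gene reached differences of this size on the (FPKM + 1) scale.

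**Figure D5:**
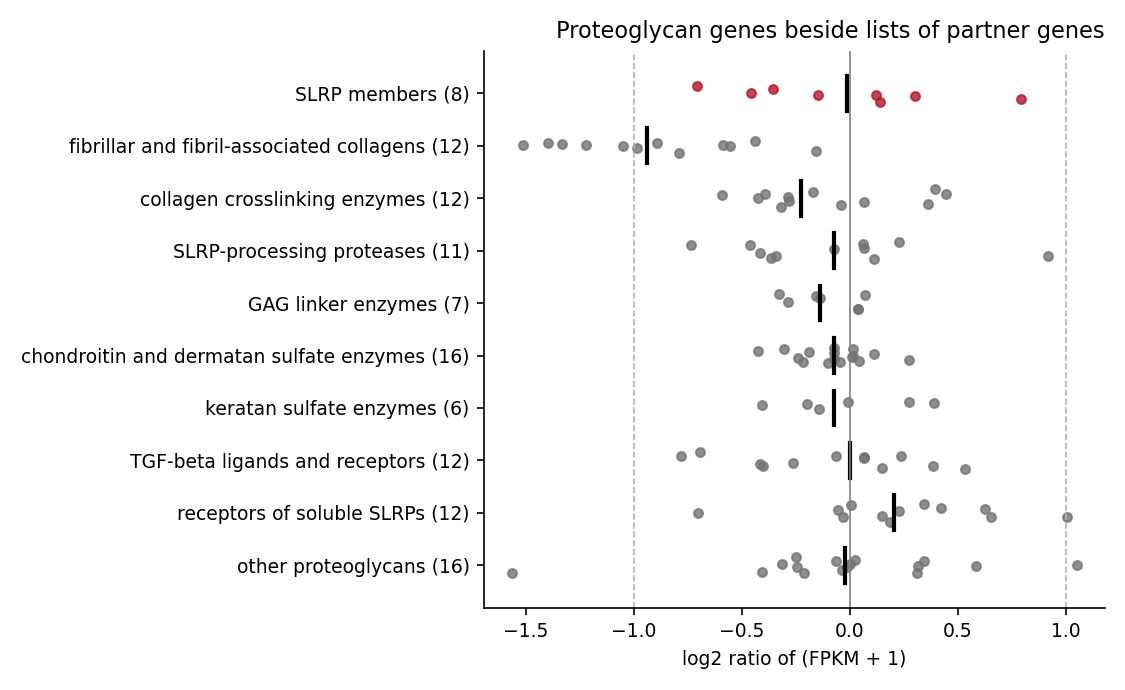
Log2 ratio of (FPKM + 1), OE-labelled over vector-labelled library, for each gene over 3 counts in both libraries of the 8 SLRP genes (red) and of 9 lists of partner genes (grey), with the number of genes in brackets, a black bar at the median and dashed lines at 2-fold. The 12 collagens all lie below 0 with a median of −0.94, and the SLRP genes lie on both sides of 0 with a median of −0.01.

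Markers of other cell types were read beside these values. Fewer cells of a type and less RNA per cell cannot be told apart in bulk RNA. Of 6 tendon markers, a tissue rich in fibromodulin, 5 were lower in the OE-labelled library, with a summed level of 34.6 against 106.8 FPKM. Thbs4 stood at 28.6 and 90.0 FPKM, Comp at 3.04 and 12.6, and the defining marker Tnmd, named after its values were seen, at 4 and 19 counts. Of 10 adipocyte markers, 8 were lower, with a summed level of 58.4 against 97.5 FPKM, and Adipoq, which encodes adiponectin, stood at 5.69 and 13.0. The 2 higher ones, named after their values were seen, were Pparg at 2.19 and 1.61 FPKM and Lpl at 10.0 and 8.86. No gene of either list was at 0 in both libraries, and the part of these markers in the SLRP values was not tested. The other marker lists were low or close to equal in sum, in FPKM of the OE-labelled library and then of the other. Endothelial markers, with 4 of 7 over 3 counts in both, summed to 2.40 and 2.03, and leukocyte markers, with 4 of 10, to 0.96 and 0.58. Muscle cell markers, with 2 of 5, summed to 1.65 and 1.30, and cartilage and bone markers, with 5 of 7, to 7.04 and 6.77. Pericyte and smooth muscle markers, with 4 of 6, summed to 17.2 and 15.3, and Schwann and neural markers, with 4 of 5, to 35.2 and 40.3, of which Tubb3 alone held 33.2 and 36.5. Among these 6 lists, 1 endothelial and 3 leukocyte markers were at 0 in both libraries.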

How the data were processed

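RNA-seq of 1 library per group was analysed. Per the submitters' processing notes, cutadapt 1.9, HISAT2 2.2.1, StringTie 2.1.6, DESeq2 and edgeR were used with mm10, whereas the study's methods name STAR and FeatureCounts. Which of these made the files, the annotation release and whether counting used the strand that the dUTP libraries keep are not given in the sources used here. The authors deposited a raw count and an FPKM value, rounded to 2 decimals, per gene. In the OE-labelled library 96.4% of 11458 genes, and in the vector-labelled library 97.4% of 10861, had an FPKM within 1% of count over exon length over a single total. Another total would shift every gene of that library alike.

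The comparison was planned on FPKM, and that the files also hold counts was seen later. The measure was the log2 ratio of (FPKM + 1), described against folds of 2 and 1.5. Counts gave CPM, the floor of 3 counts and intervals at the 95% level, which shrink as counts grow. Those of single genes were exact (Clopper-Pearson). Log2 differences in the ratio of a gene to another were taken from counts, and their intervals were normal approximations. Count models need replicates, and none was run. Alternatives were smaller pseudocounts, other scalings (edgeR 4.0.16 TMM, DESeq2 1.42.0 size factors), removal of trends over GC content and exon length in 20 bins, and a filter at 1 FPKM. Both trends were fitted on genes with a mean of at least 1 FPKM. Calculations used Python 3.11.15 and R 4.3.3 and were tested on simulated data. Coordinates, exon length and GC content came from GENCODE M21, which holds 26012 of the 26082 identifiers, and promoters from RefSeq.

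The 8 members and all lists were chosen with earlier results of these data known. The text names the members, Tgfbr3, family genes at their loci, and of each list at most 3 genes with a mean of at least 1 FPKM and the largest ratio. FAP and other marker genes outside that rule were named after their values were seen, as were Podnl1, Col1a1, Col5a2 and Tnmd. Epyc, Tll2, Ibsp, Myf5, Myod1, Pax7, Cd3e and Sox10 were not analysed here. A further promoter motif that was searched is not reported here.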

Additional observations from a re-analysis of the deposited data

How the results depend on the processing

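With 1 library per group no replicate could be left out, and depth limits the scarce genes most, as Lum had 8 counts in 1 library. No paired analysis was possible because the labels give no replicate numbers and each group has 1 library. The ratios of Bgn, Fmod, Ogn, Aspn and Podn kept their direction under all settings tried, from −0.40 to −0.07 for Bgn, −0.97 to −0.64 for Fmod, 0.35 to 2.26 for Ogn, −1.76 to −0.43 for Aspn and −1.47 to −0.26 for Podn. These ranges leave out the GC trend fitted on genes with a mean of 0.1 to 1 FPKM, with which Aspn was at −1.91. Prelp turned to −0.0031 when centred, −0.10 with TMM and −0.13 with DESeq2 size factors. Dcn turned to −0.0734 with TMM, −0.11 with DESeq2 size factors, −0.31 without the GC trend, −0.0709 without the length trend and −0.46 in plain CPM without the GC trend, and Lum to −0.13 without the GC trend. Both plain CPM settings were chosen after seeing the data. The number of members past 2-fold, 0 in the report, was 3 with a pseudocount of 0.1. It was 1 with CPM + 1 or with TMM, where 1 was also added to CPM. It was 4 with a pseudocount of 0.01, plain FPKM, either plain CPM, or DESeq2 size factors, where 1 was added to scaled counts. Past 1.5-fold, 2 in the report, it was 5 under each of these settings, 3 when centred and 1 among members of at least 1 FPKM. Without the GC trend it stayed at 2, but these were Fmod and Aspn, both lower, in place of Fmod and Ogn. A smaller added constant weighs on the 4 scarce genes, by construction. The share of all genes past the same fold was taken only for (FPKM + 1) and, at 2-fold, for plain CPM. The counts under the other settings have no such share beside them and are not a result about the members. In plain CPM, 13.0% of all genes were 2-fold higher and 4.35% lower. Among genes with a mean of 0.1 to 1 FPKM these shares were 22.4% and 7.11%. The median, −0.01 in the report, was −0.14 centred, 0.0598 at a common sum, −0.0326 without the 50 highest genes, −0.0304 as CPM + 1, −0.23 with TMM, −0.27 with DESeq2 size factors, −0.24 without the GC trend, −0.21 without the length trend, and −0.0304 and −0.35 as plain CPM without and with removal of the GC trend. The log2 ratio of the summed level, −0.09 in the report, was in the same order −0.21, −0.0151, −0.11, −0.12, −0.32, −0.36, −0.13, −0.26, −0.12 and −0.17. The cause of these shifts was not tested.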
